A study of Mus musculus with 16 samples.

Results

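Ngfr and 8 further receptors of the tumor necrosis factor (TNF) receptor family, Tnfrsf1a, Tnfrsf1b, Tnfrsf14, Tnfrsf18, Tnfrsf21, Fas, Cd27 and Ltbr, were followed through the RNA-seq of sorted splenic B cells. The 9 genes were taken by symbol from the 27928 genes of the table, and the receptors for BAFF and CD40 were not among them. They were chosen from their normalized counts in these libraries, with the differences of follicular (FO) from marginal zone (MZ) B cells and of the genotypes already known, so those differences are given as a description without a p-value. Of the 9 genes, 8 had a mean of at least 10 normalized counts and entered the fit of 14761 genes, and Ltbr did not. A normalized count is the number of reads on a gene divided by the size factor of its library.

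The cells came from the spleens of young adult C57BL/6 mice. WT mice were BL6 animals, and cKO mice were Gtf2i fl/fl with CD19cre+, in which the floxed gene for the transcription factor TFII-I is cut by a Cre that is expressed in the B cell lineage. FO B cells were sorted as CD21lo CD23hi and MZ B cells as CD21hi CD23lo, and each of the 4 groups had 2 RNA libraries with no treatment. No source says whether the 2 libraries of a group came from separate mice, so a p-value here measures the spread between these libraries. That spread may be technical, except in cKO FO, where the 2 libraries differed in a sex-linked transcript, as given below.

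TNF receptors are membrane proteins with cysteine-rich repeats outside the cell. Those with a death domain inside the cell (Ngfr, Tnfrsf1a, Tnfrsf21 and Fas) can assemble complexes that lead to cell death or to NF-kappaB signaling, and the others recruit TRAF adaptors that activate NF-kappaB. FO B cells recirculate through follicles and serve T cell-dependent responses, whereas MZ B cells stay near the marginal sinus and respond fast to blood-borne antigen.

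Reads on genes numbered between 21546552 and 25083552 per library. The transcripts of the sort markers followed the labels: Fcer2a, which encodes CD23, was between 24802 and 41973 normalized counts in the FO libraries and between 3069 and 6708 in the MZ libraries, and Cr2, which encodes CD21, was between 22942 and 26803 in FO and between 86953 and 97087 in MZ. Gtf2i was between 1992 and 2864 in WT and between 1523 and 1889 in cKO. Sex-linked transcripts also moved with genotype, since Ddx3y of the Y chromosome was at most 6.34 in WT and at least 2682 in cKO. The X-linked Xist was at least 25930 in WT, 14748 in cKO FO replicate 1 and no more than 89.7 in the remaining cKO libraries, so cKO FO replicate 1 held both kinds of transcript. The part of sex and of the Cre allele in the genotype differences below cannot be told apart from that of the deletion. The library cKO MZ replicate 1 stood apart, with a sum over 8 granulocyte markers of 1708 normalized counts (at most 84.6 in each other library) and a sum over 4 erythroid markers of 10149 (at most 747 in each other library), so the receptor differences that rest on it are also given without it.

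The pair of receptors with the widest difference between the subsets is shown first with its promoter sequence. The bases lie upstream of the outermost annotated transcript start, are taken from RefSeq for GRCm38.p6 and read 5′ to 3′ on the strand of the gene. Capitals mark GGGCGG or its reverse complement CCGCCC, the core of the GC box that Sp family factors bind. Ngfr, which had more RNA in FO, is shown for chr11:95587736-95587948 on the minus strand, and Tnfrsf21, which had more RNA in MZ, for chr17:43016305-43016554 on the plus strand.
Ngfr: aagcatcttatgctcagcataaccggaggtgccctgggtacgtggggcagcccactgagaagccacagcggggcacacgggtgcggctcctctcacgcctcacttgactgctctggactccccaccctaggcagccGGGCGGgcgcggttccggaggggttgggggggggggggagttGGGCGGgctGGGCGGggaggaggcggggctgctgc
Tnfrsf21: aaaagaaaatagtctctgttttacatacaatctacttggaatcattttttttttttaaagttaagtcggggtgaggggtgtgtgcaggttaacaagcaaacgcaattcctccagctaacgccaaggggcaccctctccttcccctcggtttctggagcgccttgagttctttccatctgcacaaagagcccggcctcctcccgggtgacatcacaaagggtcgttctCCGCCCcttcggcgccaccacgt

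RefSeq windows of 300 bases, from 250 before to 50 after the start, were found for 9 of the 9 receptors. The GC box core was searched on both strands, and 5 of the 9 windows held it, beside 35.7% of the 32851 windows in the table. The Ngfr window held 4 matches, of which 3 fall in the printed stretch, and the Tnfrsf21 window held 1. The E-box CACGTG, which reads the same on both strands and is a sequence that TFII-I has been described to bind, was in the windows of Tnfrsf21, Fas and Ltbr, 3 of 9, beside 7.15% of all windows. In Tnfrsf21 it runs across the start, from base -5 to base 1, so its last base lies just past the printed stretch. In the 9 windows no match of one motif overlapped a match of the other. These matches describe the letters in the windows and were not tied to the levels.

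Ngfr (ENSMUSG00000000120.6, chr11:95568818-95587735, minus strand) encodes the p75 neurotrophin receptor, a death domain receptor for neurotrophins. It had 331 and 278 normalized counts for WT FO and 177 and 186 for cKO FO B cells. In MZ B cells it had 19.3 and 37.1 in WT and 14.0 and 10.3 in cKO. Each FO library lay above each MZ library, and the lowest FO value was several times the highest MZ value. The means were 304.6 ± 37.8 in WT FO and 28.2 ± 12.6 in WT MZ (SD, n = 2), a ratio of 10.8. In cKO they were 182 ± 6.58 and 12.1 ± 2.58, a ratio of 14.96. On the scale of log2(normalized count + 1), which is used for every log2 difference here and makes those of low genes smaller, FO minus MZ was 3.45 in WT and 3.81 in cKO (limma SE 0.34 in each). In bulk RNA, fewer cells with a transcript and less of it per cell cannot be told apart.

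Ngfr is also known from stromal and follicular dendritic cells of lymphoid tissue, so the transcripts of these cells were looked up. The sum of 10 stromal and follicular dendritic cell markers was between 7073 and 8147 normalized counts in FO and between 5311 and 6527 in MZ, nearly all from Pecam1, which B cells also express. Of the 10 markers 2 were higher in FO without overlap, Pecam1 and Mfge8, and Mfge8 was between 197 and 241 in FO and between 94.4 and 140 in MZ. Cdh5 was lower in FO without overlap, at 16.2 to 21.0 against 55.9 to 110, and the other 7 overlapped, among them Cxcl13 (0 in the 4 FO libraries) and Pdgfrb (at most 2.01 in FO). Col1a1, Col1a2 and Col3a1 were high in cKO MZ replicate 2 alone, at 111, 45.4 and 37.1 normalized counts. In each other library these genes were at most 3.62, 6.66 and 4.53. Replicate 2 is the cKO MZ library left when replicate 1 is dropped. The part of stromal and follicular dendritic cells in the Ngfr difference was not tested.

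Tnfrsf21 (ENSMUSG00000023915.5, chr17:43016555-43089189, plus strand) encodes death receptor 6. It went the other way, with 826 and 531 normalized counts for WT MZ and 580 and 684 for cKO MZ against 86.8 and 74.2 for WT FO and 120 and 74.5 for cKO FO. The 4 MZ libraries all lay above the 4 FO libraries. The MZ mean was 8.43 times the FO mean in WT (679 ± 209 against 80.5 ± 8.92, SD, n = 2) and 6.50 times in cKO (632 ± 73.2 against 97.1 ± 32.05). FO minus MZ was -3.03 in WT and -2.72 in cKO on the log2 scale, with an SE of 0.28.

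The other death domain receptors did not separate the subsets in both genotypes. Fas (ENSMUSG00000024778.13, chr19:34290666-34327772), the receptor of Fas ligand that triggers apoptosis, had 115 and 126 normalized counts for WT FO and 84.8 and 146 for WT MZ B cells. In cKO it had 100.8 and 118 in FO and 73.8 and 98.0 in MZ. The subsets overlapped in WT and not in cKO, with FO minus MZ at 0.11 and 0.35 on the log2 scale (SE 0.29), the latter 0.15 (SE 0.37) without cKO MZ replicate 1. Tnfrsf1a (ENSMUSG00000030341.17, chr6:125349362-125362484), the death domain receptor of TNF, was close to the filter. It had 11.0 and 19.0 normalized counts for WT FO, 7.70 and 28.1 for WT MZ, 15.7 and 5.03 for cKO FO, and 26.9 and 10.3 for cKO MZ. The replicates of both MZ groups and of cKO FO differed by more than any pair of group means. The subsets overlapped in both genotypes, and the SE of 0.79 was the widest of the 8 receptors in the fit. The sum of 8 monocyte and macrophage markers varied between replicates too. It was 490 and 1142 normalized counts for WT FO and 365 and 1540 for WT MZ. In cKO it was 911 and 490 for FO and 1535 and 814 for MZ. In each group the library with more Tnfrsf1a also had the higher sum. The part of such cells in the Tnfrsf1a values was not tested.

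**Figure D1:**
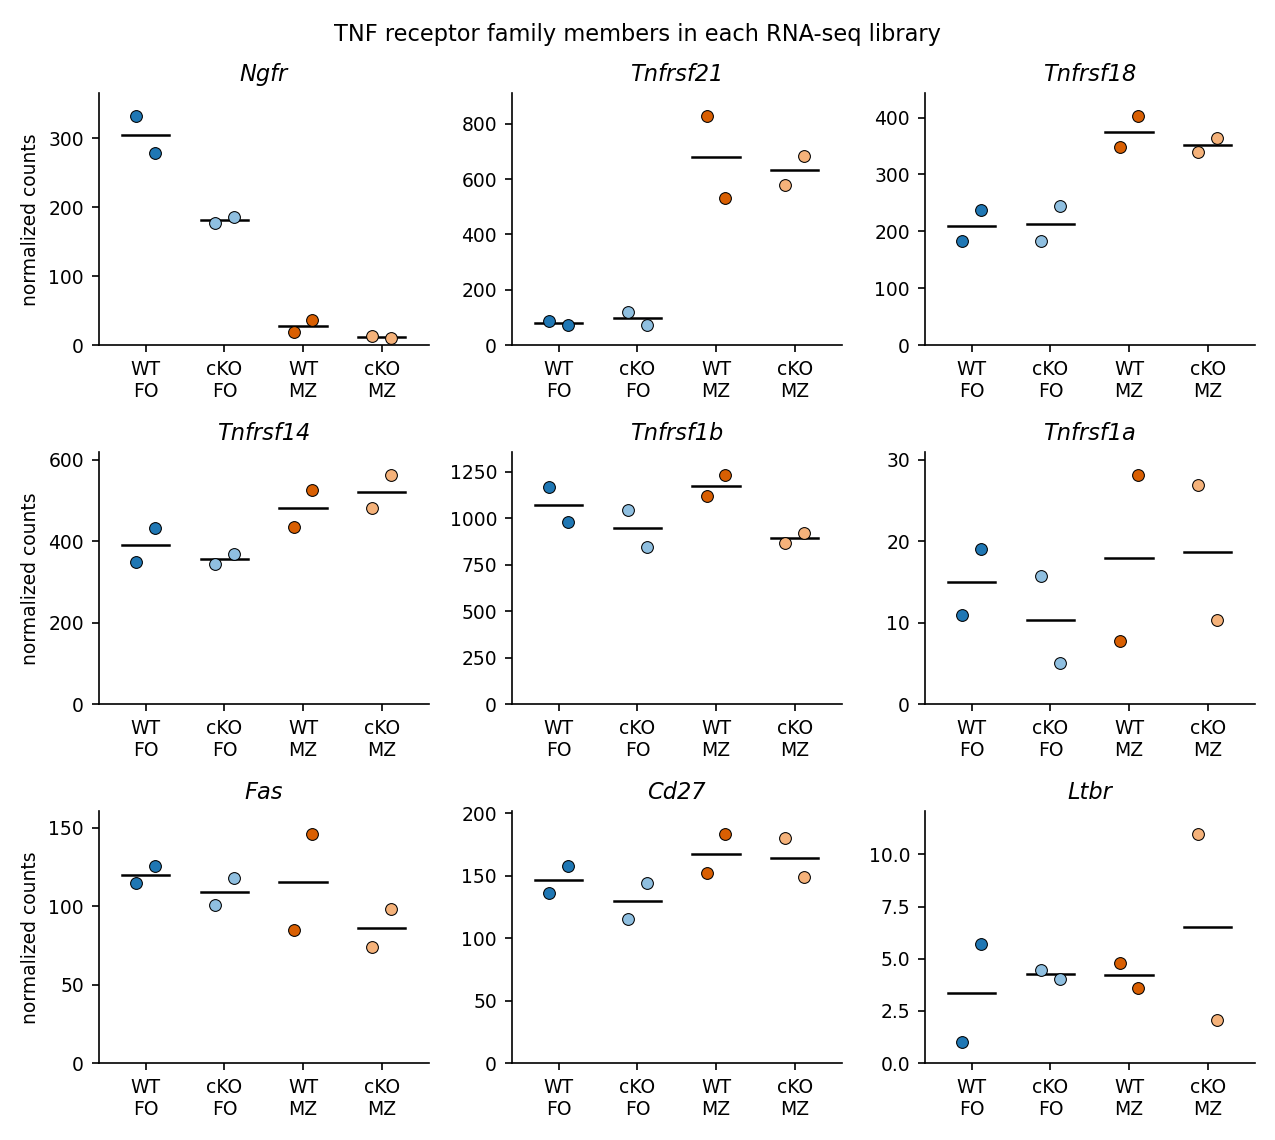
Normalized counts (vertical axes, each from 0) of the 9 receptors in the 8 libraries, with 1 point per library and a line at the mean of the 2 libraries of a group. Ngfr is high in the 4 FO libraries, Tnfrsf21 and Tnfrsf18 are higher in the 4 MZ libraries, and Ltbr stays at or below 11.0 normalized counts.

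Among the receptors that signal through TRAF adaptors, Tnfrsf18 (ENSMUSG00000041954.18, chr4:156026164-156028895), which encodes the costimulatory receptor GITR, was higher in MZ. It had 348 and 402 normalized counts for WT MZ and 339 and 364 for cKO MZ against 183 and 238 for WT FO and 183 and 245 for cKO FO. The subsets did not overlap, and the MZ mean was 1.78 times the FO mean in WT and 1.65 times in cKO. FO minus MZ was -0.84 in WT and -0.73 in cKO on the log2 scale (SE 0.20). Without cKO MZ replicate 1 the difference in cKO was -0.78 (SE 0.27), and without cKO FO replicate 1 it was -0.52 (SE 0.22). GITR is also known from regulatory T cells and NK cells. The sum of 8 T cell markers was between 70.5 and 133 normalized counts in FO and between 105 and 219 in MZ. Of the 8 markers Trac was higher in MZ without overlap, at 21.9 to 38.9 against 6.72 to 13.3 in FO, and the other 7 overlapped, among them Foxp3 (10.5 to 25.8 in FO and 7.25 to 16.4 in MZ). Of 4 NK cell markers, Ncr1, Klrb1c and Gzma had overlapping values in FO and MZ and Prf1 did not (43.3 to 84.7 in FO and 299 to 410 in MZ), so that their sum was between 79.5 and 298 in FO and between 374 and 530 in MZ. The part of such cells in the Tnfrsf18 difference was not tested. The gene overlaps Gm16008 on the opposite strand, and whether counting used the strand is not given in the sources used here, so reads of the pair cannot be told apart.

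Tnfrsf14 (ENSMUSG00000042333.16, chr4:154921933-154928563), which encodes the herpesvirus entry mediator HVEM, had 348 and 432 normalized counts for WT FO and 436 and 525 for WT MZ B cells. In cKO it had 345 and 369 in FO and 482 and 562 in MZ. The 4 FO libraries lay below the 4 MZ libraries by a narrow margin, and FO minus MZ was -0.30 in WT and -0.54 in cKO (SE 0.16), each less than 1.5-fold. Cd27 (ENSMUSG00000030336.14, chr6:125232622-125237010), a memory marker in human B cells and a costimulatory receptor of T cells, had 136 and 158 for WT FO, 152 and 183 for WT MZ, 115 and 144 for cKO FO, and 180 and 148 for cKO MZ. Its subsets overlapped in WT and lay apart by little in cKO, with FO minus MZ at -0.19 and -0.34 (SE 0.21). Cd27 overlaps Vamp1 on the opposite strand and Mir8113, and Fas overlaps Gm27818, so their reads cannot be told apart either.

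Tnfrsf1b (ENSMUSG00000028599.10, chr4:145213463-145246870), the TNF receptor without a death domain, had the most reads of the 9 and the smallest spread across libraries. It had 1166 and 978 normalized counts for WT FO, 1120 and 1231 for WT MZ, 1047 and 848 for cKO FO, and 867 and 919 for cKO MZ. The highest library was 1.45 times the lowest, against 32.1 times for Ngfr and 11.1 times for Tnfrsf21. FO minus MZ was -0.14 in WT and 0.08 in cKO (SE 0.14), with overlapping subsets in both genotypes. Ltbr (ENSMUSG00000030339.7, chr6:125306571-125313885), the lymphotoxin beta receptor that stromal cells use to organize lymphoid tissue, had between 1 and 11 reads per library, or 1.00 to 11.0 normalized counts. At such counts it lay below the filter, and no difference was detectable at this depth.

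In size, the Ngfr difference between FO and MZ ranked 119 among all 14761 genes in WT and 115 in cKO, and that of Tnfrsf21 ranked 178 and 330. Without cKO MZ replicate 1 the difference in cKO was 4.01 for Ngfr, -2.84 for Tnfrsf21, -0.65 for Tnfrsf14, -0.20 for Cd27, 0.04 for Tnfrsf1b and -0.17 for Tnfrsf1a. By the cutoff of the study, which asks for an adjusted p no higher than 0.05 with a change of 1.5-fold or more, limma placed 4.62% of all genes above the cutoff toward FO and 7.41% toward MZ in WT, and 5.54% and 8.18% in cKO. Because the values of the receptors were known when they were chosen, their own calls in this comparison are not counted.

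**Figure D2:**
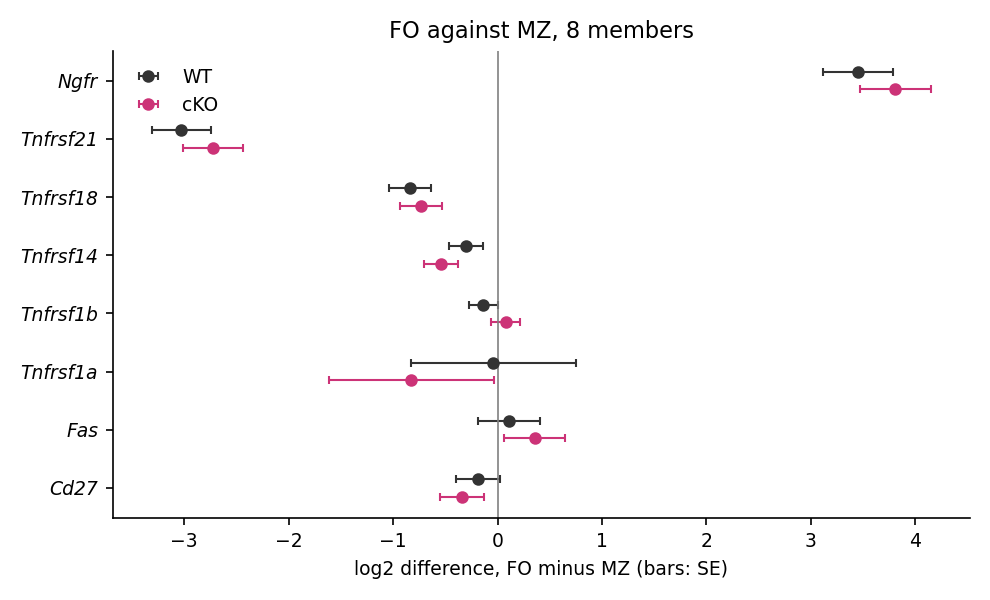
The log2 difference of FO minus MZ B cells (horizontal axis) of the 8 fitted receptors in WT and in cKO, with bars of 1 SE from limma. Ngfr lies at 3.45 and 3.81, Tnfrsf21 at -3.03 and -2.72, and the other 6 receptors lie between -0.84 and 0.35.

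Per kilobase of merged exons, the order of the receptors also depended on the subset. In WT FO B cells Tnfrsf1b was at 281 ± 34.7 normalized counts per kilobase (SD, n = 2) and Tnfrsf14 at 271 ± 41.1, and these neighbors overlapped. Tnfrsf18 followed at 138 ± 25.6, then Ngfr at 88.4 ± 11.0, Cd27 at 63.1 ± 6.75 and Fas at 58.3 ± 3.71, of which only Cd27 and Fas overlapped. By the length of the longest transcript in place of merged exons, Tnfrsf14 stood above Tnfrsf1b and Cd27 (94.2) above Ngfr. Tnfrsf21 came next at 19.6 ± 2.17, above Tnfrsf1a at 5.79 ± 2.20 and Ltbr at 1.42 ± 1.41. In WT MZ B cells Tnfrsf21 stood at rank 4, at 165 ± 50.9 per kilobase, and Ngfr stood at rank 7, at 8.18 ± 3.67, where it overlapped Tnfrsf1a at 6.90 ± 5.56. In cKO FO B cells Ngfr, at 52.7 ± 1.91, overlapped Fas at 53.0 ± 5.83, whereas among cKO MZ B cells it stood at 3.52 ± 0.75 and overlapped Tnfrsf1a and Ltbr.

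The comparison of cKO with WT describes the genotype difference, in which sex and the Cre allele cannot be told apart from the deletion. Ngfr was lower in both cKO libraries than in both WT libraries of each subset. The WT mean was 1.68 times the cKO mean in FO B cells and 2.32 times in MZ B cells, where WT had 20 and 41 reads and cKO 14 and 10. On the log2 scale cKO minus WT was -0.74 in FO and -1.10 in MZ (SE 0.34), and -0.92 (SE 0.24) as the mean of both subsets. In MZ the value rests in part on WT MZ replicate 2, the higher of its pair, without which it was -0.64 (SE 0.33), and without cKO MZ replicate 1 it was -1.30 (SE 0.42). In FO it was -0.70 (SE 0.45) without cKO FO replicate 1. Of the 9 receptors Ngfr alone was lower without overlap in both subsets, and 5.46% of all genes tested were.

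The cKO MZ libraries both lay below the WT MZ libraries for Tnfrsf1b, with cKO minus WT at -0.40 on the log2 scale in MZ and -0.18 in FO (SE 0.14), and the FO libraries overlapped. Of the 9 receptors 2 were lower without overlap in cKO MZ and 1 in cKO FO, beside 18.7% and 13.1% of all genes tested. The remaining 6 fitted receptors overlapped between genotypes in each subset. Their differences ran from -0.38 (Fas) to 0.16 (Tnfrsf1a) in MZ and from -0.63 (Tnfrsf1a) to 0.23 (Tnfrsf21) in FO. Without cKO MZ replicate 1 the differences in MZ were -0.35 for Tnfrsf1b, -0.18 for Fas and -0.49 for Tnfrsf1a, and those of the other 4 ran from -0.17 (Cd27) to 0.23 (Tnfrsf14). The median over all genes was -0.01 in each subset.

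Over all genes limma called 0.0339% by the cutoff in MZ, 0.0677% in FO and 0.108% in both subsets together, and 4.04%, 2.59% and 6.63% had an unadjusted p under 0.05. The receptors are given here by their values alone.

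**Figure D3:**
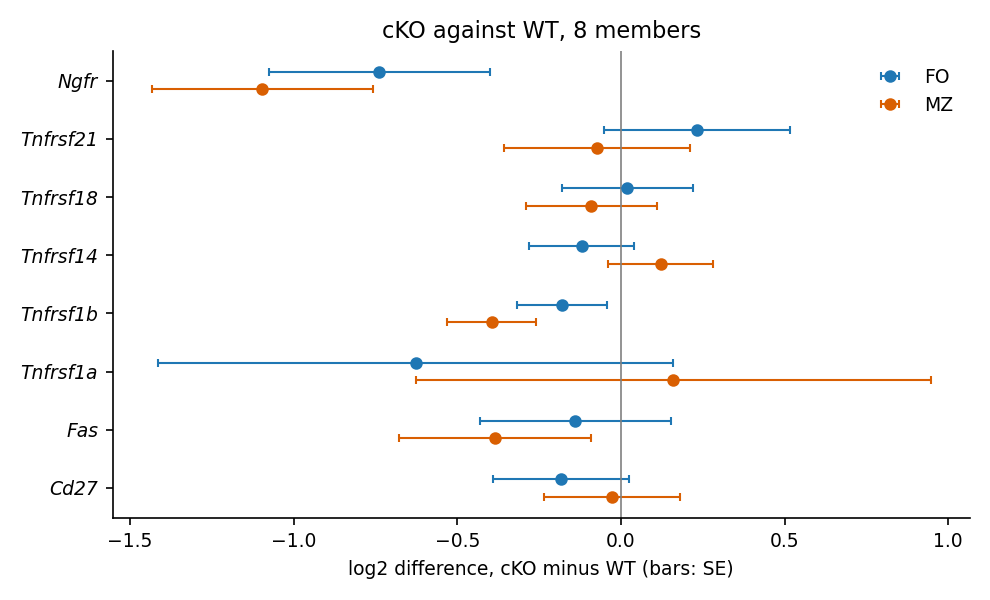
The log2 difference of cKO minus WT (horizontal axis) of the 8 fitted receptors in FO and in MZ B cells, with bars of 1 SE from limma. Ngfr lies lowest in both subsets, at -0.74 and -1.10, and Tnfrsf1b lies at -0.18 and -0.40.

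Whether the difference between FO and MZ itself differed between WT and cKO is described by the interaction of genotype and subset. This contrast is formed from the same differences that were known when the receptors were chosen, so it is given without a p-value. It was 0.36 (SE 0.48, 95% interval -0.75 to 1.47) for Ngfr and 0.31 (SE 0.40, 95% interval -0.63 to 1.24) for Tnfrsf21 on the log2 scale. Over all 14761 genes limma called 0.0%, with 94 at an unadjusted p under 0.05, and DESeq2 and edgeR also called 0.

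The rest of the pathway was read from lists of 61 genes, of which 53 were in the table and 42 passed the filter. These are other TNF receptors, ligands of the 9 receptors, adaptors and regulators, and partners of Ngfr. The lists were also drawn up with earlier results of these data known, so the p-values and calls of their genes are a description. Between FO and MZ, FO was higher for 3 of the 42 and MZ for another 3 in WT, and for 2 and 2 in cKO, beside the shares of all genes given above. The median difference of the 42 was 0.07 in WT and 0.11 in cKO on the log2 scale, where that of all genes was 0.00 in each. Between the genotypes and in the interaction 0 of the 42 were called by limma, DESeq2 or edgeR, and at an unadjusted p under 0.05 limma counted 2 of them (Birc3 and Rnf31) in MZ and in both subsets together, 0 in FO and 0 in the interaction. The 2 of 42 stand beside 4.04% of all genes in MZ and 6.63% in both.

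Of the 13 ligands, 9 were in the table and 6 were tested. Tnfsf18, which encodes the ligand of GITR, was higher in MZ like its receptor. It had 32.7 and 34.4 normalized counts for WT MZ and 45.8 and 40.2 for cKO MZ against 4.99 and 8.56 for WT FO and 6.72 and 6.04 for cKO FO. FO minus MZ was -2.19 in WT (SE 0.39, limma adjusted p = 0.00897) and -2.58 for cKO (limma adjusted p = 0.00399). Without cKO MZ replicate 1 the difference for cKO was -2.48. In a fit of only the 4 libraries compared, Tnfsf18 did not pass in WT (limma adjusted p = 0.0514). Its FO values rest on 5 to 9 reads a library. Btla, the inhibitory receptor that binds HVEM, was higher in FO, where HVEM itself was slightly lower. Btla had 16106 and 22092 normalized counts for WT FO, 6866 and 10871 for WT MZ, 19816 and 27545 for cKO FO, and 10662 and 10913 for cKO MZ. Its FO minus MZ was 1.13 in WT (SE 0.25, limma adjusted p = 0.0207) and 1.11 for cKO (limma adjusted p = 0.0192). In WT it no longer passed without WT FO replicate 2 (0.90) or WT MZ replicate 1 (0.80). In cKO it did not pass without cKO FO replicate 2 (0.88), cKO MZ replicate 1 (1.10) or cKO MZ replicate 2 (1.13), with limma adjusted p up to 0.111.

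Of the ligands that did not pass in either genotype, Ltb, the membrane anchor of lymphotoxin, had the most reads. Ltb lay between 11571 and 17678 normalized counts in FO and between 8267 and 10682 in MZ. Lta lay between 650 and 1005 in FO and between 1029 and 1284 in MZ. Tnf was between 102 and 209 and Cd160, another partner of HVEM, between 24.2 and 85.1, with overlapping subsets. The limma adjusted p of these 4 lay between 0.0892 and 0.907. Fasl was between 2.01 and 8.56 normalized counts and Tnfsf14 (LIGHT) between 0 and 7.97, both below the filter. Bdnf, a ligand of Ngfr, had 0 reads in 7 libraries and 1 read in the eighth. Cd70, Ntf3 and Ntf5 were not analysed here.

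Of 15 other TNF receptors, 12 were in the table and 8 were tested, and 2 were called in WT. Tnfrsf12a, the receptor of TWEAK, was higher in FO in both genotypes. It had 258 and 155 normalized counts for WT FO, 100 and 68.8 for WT MZ, 240 and 194 for cKO FO, and 56.8 and 78.4 for cKO MZ. Its FO minus MZ was 1.26 in WT (SE 0.32, limma adjusted p = 0.0332) and 1.68 for cKO (limma adjusted p = 0.00981), and neither passed without cKO MZ replicate 1 (limma adjusted p = 0.0515 and 0.0819) or cKO FO replicate 1 (0.0577 and 0.0756). In WT it also fell short without WT FO replicate 1 (difference 0.89), WT MZ replicate 2 (0.99), cKO FO replicate 2 or cKO MZ replicate 2 (1.26 in both). Relt, a receptor expressed in lymphoid tissue, was lower in FO in WT, with 735 and 814 against 1120 and 1381 normalized counts. Its FO minus MZ was -0.68 in WT (SE 0.12, limma adjusted p = 0.00858) and -0.54 in cKO, where it had 752 and 729 against 1063 and 1086 and fell short of 1.5-fold. Without WT MZ replicate 2 the Relt difference in WT was -0.53, also under 1.5-fold. Tnfrsf10b, the mouse TRAIL receptor, was singled out after its values were seen. It was between 43.8 and 72.8 in FO and between 6.34 and 26.97 in MZ, with a limma adjusted p of 0.0572 in WT and 0.117 in cKO.

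All 22 adaptors and regulators were tested. Traf1, an NF-kappaB-induced adaptor of TNF receptors, was higher in MZ, with 4884 and 3851 normalized counts for WT MZ and 4376 and 4877 for cKO MZ against 1948 and 1448 for WT FO and 1701 and 1967 for cKO FO. Its FO minus MZ was -1.37 in WT (SE 0.17, limma adjusted p = 0.00197) and -1.34 for cKO (limma adjusted p = 0.00189), and it stayed called without cKO MZ replicate 1. Birc3, a ubiquitin ligase that TRAF proteins bring to the receptors, was higher in FO in WT (10864 and 9400 against 6655 and 6277), with a difference of 0.64 (SE 0.09, limma adjusted p = 0.00365). In cKO the Birc3 difference was 0.51, and in WT without WT FO replicate 1 it was 0.54, both under 1.5-fold. The other 20 were not called in either genotype.

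Of 11 partners of Ngfr, 10 were in the table and 6 were tested (Sort1, Maged1, Bex3, Prdm4, Arhgdia and Zfp110), and limma, at its lowest adjusted p of 0.0550, called 0 of them in either genotype. The Trk receptors Ntrk2 and Ntrk3 were at most 9.63 and 6.19 normalized counts, and the coreceptors Lingo1 and Rtn4r at most 26.0 and 2.01, with Lingo1 at 0 in the 4 FO libraries. Sortilin (Sort1), which joins Ngfr in binding proneurotrophins, was between 8.98 and 46.8 normalized counts with overlapping groups.

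**Figure D4:**
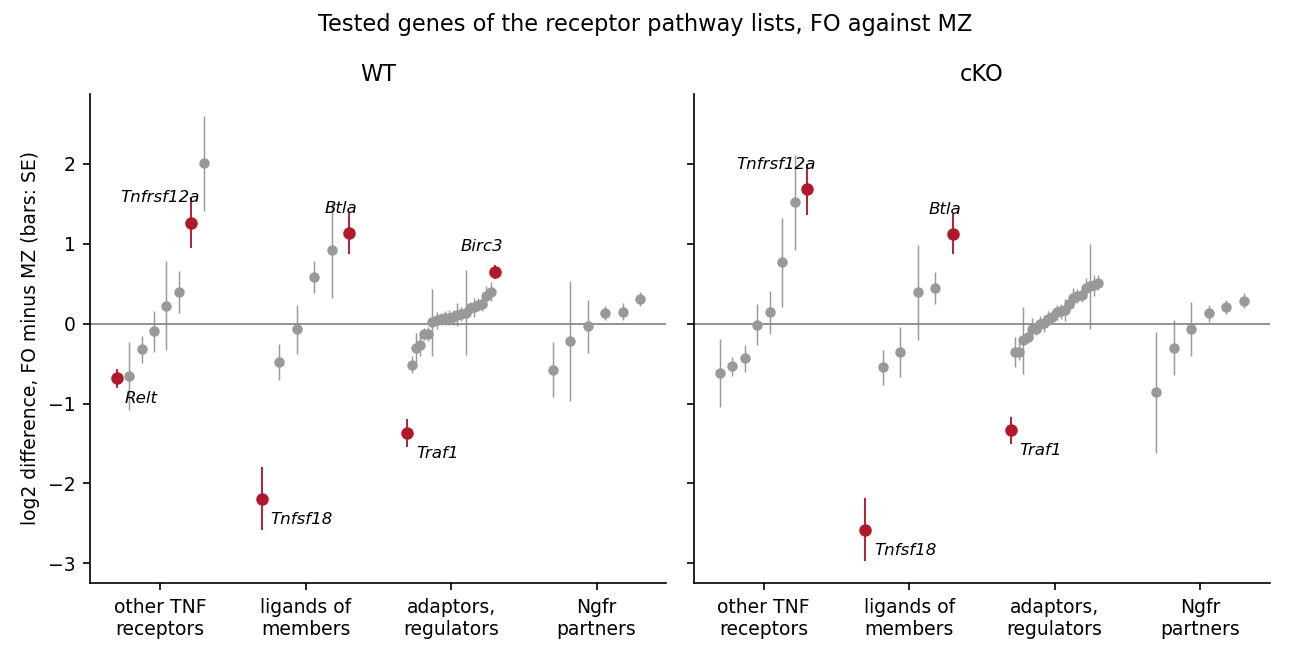
The log2 difference of FO minus MZ B cells (vertical axis) for the 42 tested genes of the pathway lists in WT (left) and cKO (right), sorted within each list, with bars of 1 SE from limma. Genes past the cutoff are red and named, with Tnfsf18 lowest at -2.19 and -2.58, and the other genes are grey.

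The genes whose levels followed Ngfr most closely over the 8 libraries were Tmod3, Lbr, Lifr, Gucd1 and Flna, with Pearson r between 0.993 and 0.996 on the log2 scale. Lifr, the receptor of leukemia inhibitory factor, was the one of the 5 with normalized counts in the range of those of Ngfr, at 264 and 213 normalized counts for WT FO, 15.4 and 27.2 for WT MZ, 148 and 213 for cKO FO, and 11.96 and 9.28 for cKO MZ. The genes with the most opposite pattern were Zfp248, Ei24 and Ctsc, with r between -0.996 and -0.991. These values describe 8 points that share the division into FO and MZ libraries, and they carry no test.

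Some of the 9 receptor genes share a chromosome, whereas Ngfr, Tnfrsf21 and Fas each lie on a chromosome without another of the 9. Cd27, Ltbr and Tnfrsf1a lie together on chromosome 6, with 69.6 kb between Cd27 and Ltbr and 35.5 kb between Ltbr and Tnfrsf1a, and Tnfrsf14 and Tnfrsf18 lie 1098 kb apart on chromosome 4, which also holds Tnfrsf1b. The chromosome 6 genes had levels that differed widely per kilobase, with Cd27 at 63.1 and Ltbr at 1.42 in WT FO B cells. On chromosome 4 both Tnfrsf14 and Tnfrsf18 were above their FO values in each MZ library, and Tnfrsf1b was not.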

How the data were processed

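Total RNA of sorted FO and MZ B cells was sequenced after removal of ribosomal RNA as single-end reads. The authors aligned the reads to mm10, the UCSC name of GRCm38, with HISAT2, counted them on genes with featureCounts and htseq-count, and deposited the signal as a table of DESeq2-normalized counts for 8 libraries. Versions and the strand setting are not given in the sources used here. The table holds 27928 genes after 256343 blank lines were dropped. Whole reads were recovered from the size factors, which a DESeq2 median of ratios matched to within 5.51e-11 of their size. Coordinates and exon lengths are from GENCODE M21 for GRCm38, where 27347 identifiers matched with their version, and promoters are from RefSeq.

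Log2(normalized count + 1) of the 14761 genes whose mean was 10 or more entered 1 fit of 4 groups of 2 libraries (R 4.3.3, limma 3.58.1, functions lmFit and eBayes, the latter with a trend). Calls needed 1.5-fold or more and a p no higher than 0.05 after Benjamini-Hochberg adjustment over all genes. With 2 libraries a group an exact permutation test cannot fall below 0.333, so p-values rest on the spread limma estimates across genes. At 21546552 to 25083552 reads a library, counting error is small except for low genes, and precision is set by the few libraries.

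The receptors and the gene lists were chosen with earlier results of these data known. The rule for named genes took the 9 receptors, each listed gene called in a comparison, the ligands, and the 5 most and 3 least like Ngfr by Pearson r. Same-numbered libraries did not deviate together in every pair of groups (r from -0.30 to 0.59), so the numbers were not used as pairs. Alternatives tried were no filter, a pseudocount of 0.5, quantile normalization, the 4 libraries compared, a replicate block, DESeq2 1.42.0, edgeR 4.0.16 (quasi-likelihood), no fold cutoff or one of 2, each library left out, exon length by the longest transcript, and, chosen after seeing the data, a block with the cKO MZ numbers exchanged. The 8 ATAC-seq samples were not analysed here. The levels of some marker genes are not reported here.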

Additional observations from a re-analysis of the deposited data

How the results depend on the processing

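Depth limits Ltbr and Tnfrsf1a and the MZ values of Ngfr, which rest on 10 to 41 reads. Within each group Tnfrsf1a also rose and fell with the sum of the monocyte and macrophage markers, and the part of such cells was not tested. Over the 18 alternatives the log2 difference of FO minus MZ was 2.997 to 3.91 (Ngfr) and -3.35 to -2.71 (Tnfrsf21) in WT and 3.61 to 4.14 and -3.06 to -2.38 in cKO, and that of Tnfrsf18 was -1.03 to -0.52 over both. Between the genotypes 0 pathway genes were called under any alternative, and Ngfr kept its sign. The interaction changed sign as single libraries were left out, from -0.10 (without WT MZ replicate 2) to 0.81 for Ngfr and from -0.034 to 0.64 for Tnfrsf21. Of the pathway genes called between FO and MZ, 6 in WT and 4 in cKO, a fit of only the 4 libraries compared left 2 in WT, no fold cutoff gave 10 in cKO, and leaving out single libraries gave 2 to 5 in cKO, the 2 without cKO MZ replicate 1. All genes called between FO and MZ numbered 1776 in WT (1014 with the 4 libraries compared) and 2026 in cKO (1325 at a cutoff of 2-fold, and 1073 to 2119 without single libraries). Between the genotypes DESeq2 called 48 genes in MZ, 24 in FO and 71 in both, against 5, 10 and 16 by limma. Without single libraries these were 4 to 11 in FO and 8 to 17 in both, and 4 in FO with the 4 libraries compared. Same-numbered libraries deviated together in only some pairs of groups and were not used as pairs, and a replicate block gave 5, 9 and 20 genes. With the cKO MZ numbers exchanged, a block chosen after seeing the data, the counts were 12, 16 and 37. The cause of these changes was not tested. The order of levels was taken with the longest transcript as well, and the rank of a receptor moved by at most 1 place.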
